A study of Mus musculus with 18 samples.

Results

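Sorted intestinal stem cells of Dlg1 conditional knock-out mice were compared with wild-type cells 14 days after an injection of tamoxifen, which induces the deletion. The comparison used the 5 columns of the 14-day count table whose names begin with Dko, read as the Dlg1 conditional knock-out, and the 5 that begin with WT, 10 of the 18 libraries of the series. Of 43432 gene identifiers in the table, 13991 had enough counts to be tested. Both genotypes received tamoxifen, the mice were 8 to 16 weeks old, and each library came from 5000 to 10000 stem cells sorted from intestinal epithelium. The labels name neither the Cre driver, nor the exons removed, nor the reporter used for sorting, and whether replicates are different animals is not stated. All p-values thus describe only the spread among these libraries, part of which may be technical.

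Dlg1 is a scaffold of the Scribble polarity complex, which marks the basolateral side of epithelial cells and helps to place their junctions. Arhgap31 is a GTPase-activating protein that switches off Cdc42 and Rac1, small GTPases that direct actin and cell polarity. Intestinal stem cells sit at the base of the crypt, depend on Wnt signals, and give rise to absorptive enterocytes and to secretory goblet, Paneth, enteroendocrine and tuft cells. The transcription factor Atoh1, which Notch signalling holds down, directs cells to the secretory fates.

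Libraries held 11.1 to 13.5 M counts in the knock-out and 12.6 to 15.7 M in the wild type, where M is mega. Epcam, Olfm4, Lgr5, Ascl2 and Muc2 are named here as markers chosen after their values were seen. The libraries held the epithelial adhesion molecule Epcam at 1711 to 2188 and Olfm4 at 641 to 1275 CPM (counts divided by TMM-scaled library size, in mega counts). Goblet, Paneth and enterocyte transcripts were also present in every library. A pair of libraries stood apart. Satellite-like gene models took 47.0% of the counts of knock-out library 5 and between 0.0552% and 10.1% elsewhere. Wild-type library 3 lay at -83.8 on the first principal component (33.2% of the variance), beyond the range of -36.4 to 44.6 of the others, and had the highest mitochondrially encoded share, 26.3%. In the other 4 knock-out libraries that share was 13.4% to 24.2%, and in the other 4 wild-type libraries 6.21% to 11.6%, so without this pair it did not overlap between genotypes. Results were therefore also computed without both libraries and with the mitochondrial share as a covariate. Column names carry a letter, B in 2 and J in 3 libraries of each genotype, whose meaning is not given in the sources used here.

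Arhgap31 was lower in all 5 knock-out libraries than in any wild-type library, and Dlg1 itself was not detectably lower. Dlg1 (ENSMUSG00000022770, chromosome 16, 31663443 to 31875129, plus strand, GRCm38), the targeted gene, was measured at 64.1, 65.5, 60.5, 85.8 and 84.1 CPM in the wild type and at 64, 44.7, 41.8, 70.3 and 101 CPM in the knock-out. Knock-out libraries 2 and 3 lay below every wild-type library, and knock-out library 5 lay above all of them. The log2 difference was -0.17 ± 0.22 (SE, two-sided exact permutation p = 0.389). Leaving out knock-out library 5 gave -0.40, leaving out knock-out library 3 gave -0.06, and leaving out the outlying pair gave -0.43. The counts cover the whole gene, so they do not check the deletion. Arhgap31 (ENSMUSG00000022799, chromosome 16, 38598340 to 38713274, minus strand) held 7.7, 13, 12, 6.61 and 11 CPM in the 5 wild-type libraries, in order, and 0.601, 1.77, 2.9, 1.43 and 1.85 CPM in the 5 of the knock-out. The highest knock-out value was below the lowest wild-type value. The means were 10.1 ± 2.78 CPM (wild type) and 1.71 ± 0.828 CPM (knock-out) (SD, n = 5 each), and the log2 fold change was -2.55 ± 0.38 (SE). A two-sided exact permutation test of log2 CPM gave p = 0.00794, the smallest that 5 against 5 libraries allow. This p restates that the libraries did not overlap, which held for 74 of 13991 genes (0.529%). Cdc42 held 279, 203, 278, 213 and 195 CPM in the wild-type and 410.1, 214, 368, 265 and 216 CPM in the knock-out libraries. These ranges overlapped, with a difference of 0.34 ± 0.21 (SE, two-sided exact permutation p = 0.183), and 3 genes were tested in this way. The value of Cdc42 was 0.15 with the mitochondrial covariate, 0.51 without the outlying pair and -0.25 with both changes. It was 0.19 without knock-out library 1 alone. The log2 fold change of Arhgap31 was -3.08 among libraries of letter B and -2.19 among those of letter J, as differences of mean log2 CPM, and -2.85 to -2.33 when each library was left out in turn. With the mitochondrial covariate it was -2.50, but without both outlying libraries and with that covariate it was -1.22 (edgeR's QL F-test under Benjamini-Hochberg adjustment, adjusted p = 0.998).

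**Figure D1:**
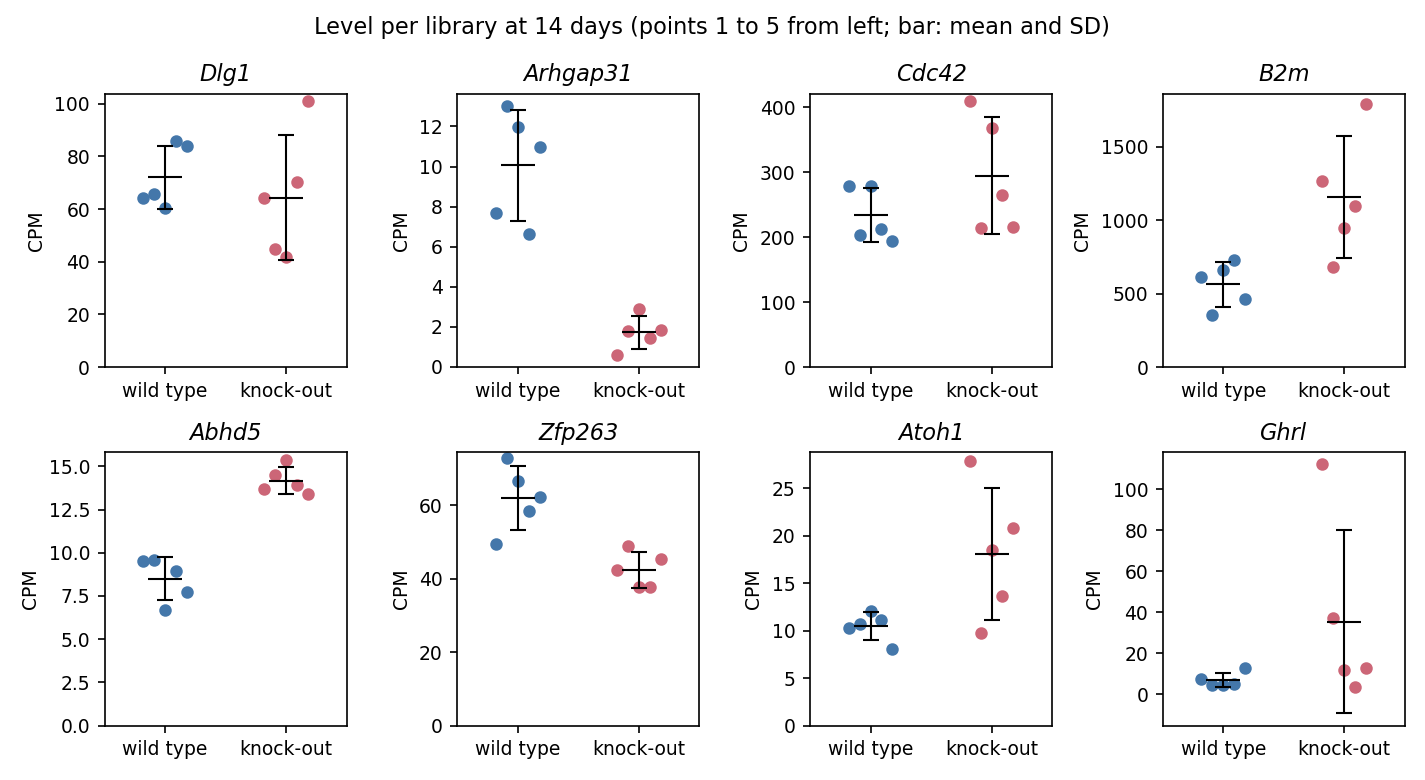
Level of 8 genes in CPM (vertical axes, linear) in each wild-type and knock-out library at 14 days, with points for libraries 1 to 5 from left to right and bars for the mean and SD of 5 libraries. Arhgap31, Abhd5 and Zfp263 do not overlap between genotypes, while the ranges of Dlg1, Cdc42, B2m, Atoh1 and Ghrl do.

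Other genes that act on Cdc42 or answer to it showed no common direction. Of 56 tested regulators and effectors, 30 had a positive fold change, and the median log2 fold change was 0.01, beside 0.01 and 51.0% positive over all genes tested. The member of smallest p after Arhgap31 was Srgap1, another GTPase-activating protein, at 1.58, 0.469, 0.192, 2.19 and 0.877 CPM in the wild-type and 4.55, 0.540, 3.64, 5.14 and 4.99 CPM in the knock-out libraries. Knock-out library 2 lay within the wild-type range and the other 4 above it, a log2 fold change of 1.79 ± 0.64 (SE) at an unadjusted p of 0.0146 by edgeR's QL F-test. Rhoa, the GTPase of stress fibres, had 0.30 ± 0.15 (SE).

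Across all genes, the quasi-likelihood (QL) F-test of edgeR under Benjamini-Hochberg adjustment called 0 of 13991. The smallest adjusted p was 0.145, for Arhgap31, and 558 genes (3.99%) had an unadjusted p under 0.05, against 699.55 expected by chance. Of these, 341 (2.44%) were higher and 217 (1.55%) lower in the knock-out. DESeq2 called 1 gene (0.00715%), Arhgap31 (adjusted p = 4.30e-08), and limma voom called 0. Only 74 genes (0.529%) had 5 knock-out libraries wholly on one side of the 5 wild-type libraries, 38 higher (0.272%) and 36 lower (0.257%). Such separation has p = 0.00794 in the exact permutation test, so random labels would separate a larger share of genes. Lack of overlap in a single gene is thus a description only. In edgeR's QL F-test each gene below whose values are given per library, other than Arhgap31, had an adjusted p of 0.957 or more. Without a filter on low counts edgeR called 2 genes, Arhgap31 and Ghrl.

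**Figure D2:**
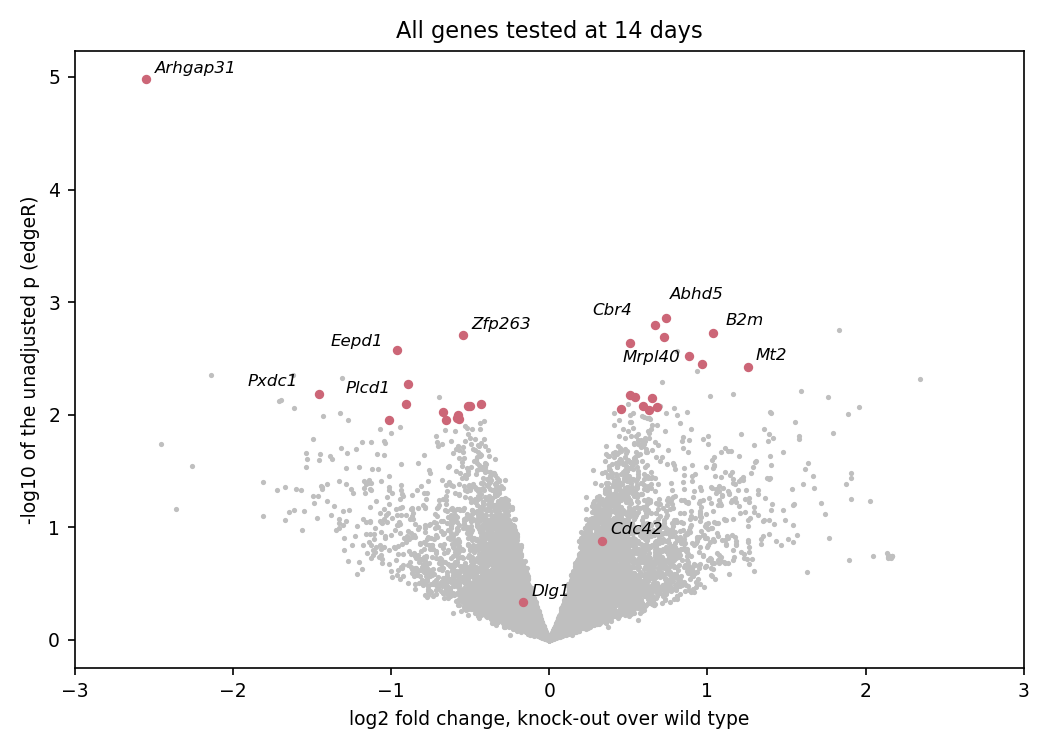
Each point is 1 of 13991 genes, with the log2 fold change of knock-out over wild type on the horizontal axis and the negative log10 of the unadjusted edgeR p on the vertical axis. Red points are Dlg1, Cdc42 and the 15 genes per direction of smallest p that the rule for named genes takes. Arhgap31 stands apart at -2.55.

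Among the 15 genes of smallest p on the higher side, log2 fold changes ran from 0.45 to 1.25. Of these, 6 did not overlap between genotypes, beside 0.272% of all genes. Choice by small p and by knock-out libraries on 1 side of the wild-type mean favours such genes. Abhd5, an activator of the lipase that starts triglyceride breakdown, held 9.51, 9.56, 6.72, 8.97 and 7.7 CPM in wild-type and 13.7, 14.5, 15.4, 13.9 and 13.4 CPM in knock-out libraries. Every knock-out value exceeded every wild-type value, with means of 8.49 ± 1.24 CPM (wild type) and 14.2 ± 0.793 CPM (knock-out) (SD, n = 5 each) and a log2 fold change of 0.74 ± 0.19 (SE). An antisense gene overlaps Abhd5, so its counts are uncertain. Cbr4, a mitochondrial carbonyl reductase, also did not overlap, at 20.2, 13.6, 15.6, 14.9 and 16.3 CPM against 32, 22.4, 25.9, 23.2 and 24.4 CPM, a log2 fold change of 0.67 ± 0.17 (SE). B2m, the light chain of MHC class I molecules, held 612, 352, 659, 726 and 465 CPM in the wild-type and 1263, 679, 947, 1098 and 1789 CPM in the knock-out libraries. Only knock-out library 2 fell within the wild-type range, and the log2 fold change was 1.04 ± 0.27 (SE), 1.0 within letter B and 1.02 within letter J. It was 1.03 with the mitochondrial covariate, 0.90 without the outlying pair (knock-out 5, wild-type 3) and -0.28 with both changes. With both changes AW112010 had -0.71 and Mfge8, named below, 0.16, beside 0.88 and -0.49 with the covariate alone. Without the pair the mitochondrial share did not overlap between genotypes, so the covariate and genotype cannot be told apart there. Of 17 MHC class I presentation genes, B2m included, 10 were positive with a median of 0.03.

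Mt2, a metal-binding metallothionein, had 1.25 ± 0.36 (SE), and AW112010, whose libraries did not overlap, 0.97 ± 0.28 (SE), or 0.64 without knock-out library 1. Prps1, which makes the precursor of nucleotides, and Itgb1bp1, which binds integrin tails, also did not overlap, at 0.59 and 0.51. Itgb1bp1 overlaps other annotated genes. Other genes on this side were Pttg1 (securin) at 0.51, the proteasome subunit Psma2 at 0.68, the polymerase subunit Polr2c at 0.45, Timmdc1, an assembly factor of respiratory complex I, at 0.63, the mitochondrial ribosomal protein Mrpl40 at 0.73, Lage3 at 0.88 and Thyn1 at 0.65.

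On the lower side, the values of the 15 genes, chosen in the same way, ran from -2.55 to -0.43. Of these, 5 did not overlap, Arhgap31 among them, beside 0.257% of all genes. Zfp263, a zinc finger transcription factor, held 49.5, 72.8, 66.6, 58.4 and 62.2 CPM in the wild-type and 42.4, 49, 37.7, 37.7 and 45.5 CPM in the knock-out libraries. All 5 knock-out values lay below all wild-type values, narrowly for wild-type library 1, with a log2 fold change of -0.54 ± 0.14 (SE). Vmp1, a membrane protein of autophagy that overlaps the microRNA gene Mir21a, held 298, 247, 260.4, 309.6 and 277 CPM against 216, 214, 178, 193 and 234 CPM, also without overlap, at -0.43 ± 0.14 (SE). Phf13, a chromatin reader, and Xpnpep2, a membrane aminopeptidase, did not overlap either, at -0.50 and -0.90. Plcd1, a phospholipase C, had -0.89 ± 0.27 (SE), with 10.6, 14.7, 11.2, 10.6 and 11.9 CPM in the wild-type and 5.41, 5.47, 3.97, 6.32 and 11 CPM in the knock-out libraries. Only knock-out library 5 reached the wild-type range. Eepd1 had -0.96 ± 0.26 (SE), Mfge8, a bridge to dying cells, -0.51, the clock repressor Ciart -1.01, the rhomboid protease Rhbdl2 -0.66, Rab11fip3, of recycling endosomes, -0.57, Zfand2a -0.67, Vstm5 -0.57 and BC016579 -0.58. Pxdc1 had -1.46 with all libraries and -0.74 without knock-out library 5 and wild-type library 3, the latter holding 21 CPM against 4.89 to 6.22 CPM in the other wild-type libraries.

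Markers of goblet, enteroendocrine and tuft cells were mostly at higher values in the knock-out. All 24 tested goblet markers were on the positive side, median 0.60, and 4 passed an unadjusted p of 0.05 as higher, beside 2.44% of all genes. Of 27 enteroendocrine markers 24 were positive, with a median of 0.36 and 4 higher at that level, and of 21 tuft markers 18 were positive, with a median of 0.38 and 0 at that level. The enteroendocrine median was 0.13 with knock-out library 1 left out and 0.61 with wild-type library 3 left out. The tuft median was 0.21 with knock-out library 3 left out and 0.71 without wild-type library 3. In these bulk libraries, more cells of a type and more RNA per cell cannot be told apart. The mean log2 CPM of goblet markers, set against the wild-type mean, was -0.26, -0.59, 0.86, 0.02 and -0.03 in wild-type libraries 1 to 5 and 1.69, -0.04, 0.58, 0.23 and 0.65 in knock-out libraries 1 to 5. Knock-out library 1 was highest, knock-out library 2 lay at the wild-type mean, and wild-type library 3 lay above 4 of the knock-out libraries. Libraries 1 and 2 of each genotype carried letter B and the others letter J. Without knock-out library 1 the goblet median was 0.22, and without wild-type library 3 it was 0.86. With the mitochondrial covariate it was 0.43. Enteroendocrine means were -0.13, 0.05, 0.14, -0.37 and 0.32 in the wild-type and 1.28, 0.29, -0.22, 0.16 and 0.64 in the knock-out libraries, and the median ran from 0.13 without knock-out library 1 to 0.61 without wild-type library 3.

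**Figure D3:**
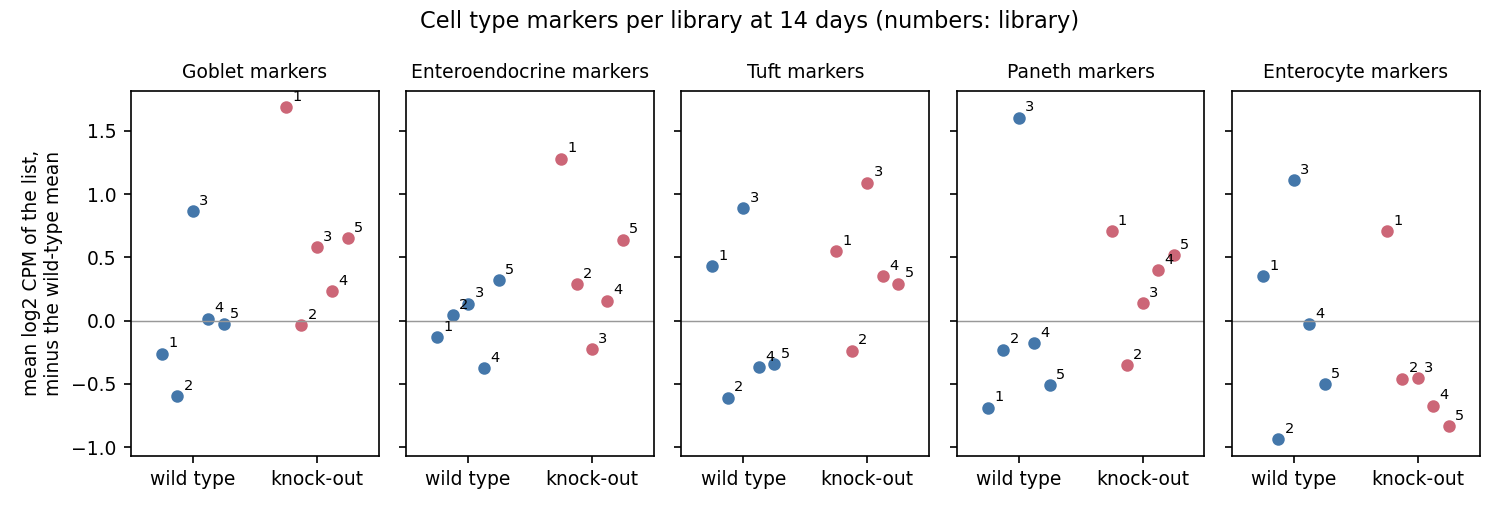
Mean log2 CPM of the tested markers of 5 cell types per library, relative to the wild-type mean (vertical axis), with library numbers beside the points. Knock-out library 1 is the highest in goblet and enteroendocrine markers, and wild-type library 3 the highest in Paneth and enterocyte markers.

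Atoh1 held 10.3, 10.7, 12.1, 11.1 and 8.08 CPM in the wild-type and 27.8, 9.71, 18.5, 13.6 and 20.8 CPM in the knock-out libraries. Knock-out library 2 lay within the wild-type range and the other 4 above it. The means were 10.5 ± 1.49 CPM (wild type) and 18.1 ± 6.94 CPM (knock-out) (SD, n = 5 each), and the log2 fold change was 0.79 ± 0.26 (SE, unadjusted p = 0.00867 by edgeR's QL F-test), and 0.58 to 0.95 when each library was left out. Over the list of Notch signalling and secretory fate, 14 of 22 members were positive with a median of 0.03, and Maml1, a Notch coactivator, had -0.45 ± 0.21 (SE).

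Among goblet markers, the protein disulfide isomerase Agr2, which mucin folding needs, held 525, 348, 863, 524 and 381 CPM in the wild-type and 2736, 492, 897, 644 and 849.8 CPM in the knock-out libraries. Knock-out library 1 was far above every other library, and the log2 fold change of 1.09 was 0.45 without it. Ccl9, a chemokine, held 14.2, 8.27, 22.1, 12.4 and 8.52 CPM against 54.8, 11.5, 25.5, 25.1 and 28.7 CPM, with 4 knock-out libraries above every wild-type library, a log2 fold change of 1.16 ± 0.36 (SE). Ccl6 and Ramp1 had 1.10 ± 0.50 and 1.05 ± 0.45 (SE), and 0.47 and 0.47 without knock-out library 1. Ccl6 had 1.68 without wild-type library 3. Within letter B the differences of Agr2, Ccl9, Ccl6 and Ramp1 were 1.44, 1.20, 1.70 and 1.45. Within letter J they were smaller, at 0.50, 0.98, 0.53 and 0.51. The main intestinal mucin Muc2 (chosen after its values were seen) had 0.65 ± 0.42 (SE), from 178 to 1153 CPM in the knock-out, and 0.10 without knock-out library 1. Among hormones, ghrelin (Ghrl) held 7.45, 4.46, 4.8, 5.27 and 12.9 CPM in the wild-type and 112, 37.1, 11.8, 3.71 and 12.7 CPM in the knock-out libraries. Knock-out libraries 1 and 2, both of letter B, were high and the other 3 lay below the highest wild-type library, so that the difference was 3.45 within letter B and 0.25 within letter J. Without knock-out library 1 its log2 fold change of 2.34 was 1.23. Overlapping gene models make its counts uncertain. Somatostatin (Sst) held 2.85, 2.76, 10.2, 7.06 and 6.58 CPM against 11.6, 24.7, 26, 22.2 and 3.0 CPM. Knock-out libraries 1 to 4 lay above every wild-type library and knock-out library 5 among them, a log2 fold change of 1.59 ± 0.49 (SE). Scgn and Insm1, a calcium sensor and a transcription factor of endocrine cells, had 1.15 ± 0.44 and 0.84 ± 0.37 (SE).

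E-box letters of the class that Atoh1 and its relatives bind were searched in RefSeq promoters (GRCm38.p6), since goblet and enteroendocrine markers lay on the same side. The motif was CAGCTG, which reads the same on both strands, in the 250 bases before each start, with any overlap counted. It was present in 3979 of 27025 genes (14.7%), in 5 of 13 goblet markers and in 7 of 23 enteroendocrine markers that matched by symbol. The stretches below, with the motif in capitals, are shown for the goblet and enteroendocrine members of smallest p that hold it, Ghrl (chr6:113720099-113720161, minus strand) and Ccl9 (chr11:83578793-83578878, minus strand), and for Muc2 (chr7:141690188-141690273, plus strand).
Ghrl: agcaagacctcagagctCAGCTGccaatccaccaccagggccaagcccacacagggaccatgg
Ccl9: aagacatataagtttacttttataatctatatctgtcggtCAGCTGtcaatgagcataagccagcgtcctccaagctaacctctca
Muc2: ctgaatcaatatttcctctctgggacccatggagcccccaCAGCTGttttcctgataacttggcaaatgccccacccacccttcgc
A match describes letters only and shows no binding. The search covered 13 of 24 tested goblet and 23 of 27 tested enteroendocrine markers, and the shares were not tested. Log2 fold changes of markers that hold the motif ran from -0.28 (Sox4) to 2.34 (Ghrl).

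With all libraries, absorptive and Paneth markers gave no such picture, and the Paneth result hung on wild-type library 3. Of 43 enterocyte markers 36 had a negative fold change, with a median of -0.35, 5 lower at an unadjusted p under 0.05, beside 1.55% of all genes, and 1 higher. Lactase (Lct) held 18.9, 3.34, 43.9, 17.5 and 6.14 CPM in the wild-type and 12.3, 6.86, 3.23, 5.39 and 4.85 CPM in the knock-out libraries, with wild-type library 3 far above the rest, and its log2 fold change of -1.45 ± 0.56 (SE) was 0.19 within letter B and -1.90 within letter J. Alkaline phosphatase (Alpi), trehalase (Treh) and adenosine deaminase (Ada) had -0.76 ± 0.33, -1.02 ± 0.46 and 0.64 ± 0.23 (SE). Without wild-type library 3 Lct had -0.81 and Treh -0.66. The enterocyte median was -0.10 without wild-type library 3, -0.78 without knock-out library 1 and -0.04 when knock-out library 5 and wild-type library 3 were both left out. Genes of xenobiotic and retinoid metabolism had a median of -0.25, 0.04 without that pair, -0.02 without wild-type library 3 and -0.45 without knock-out library 1. With the mitochondrial covariate the enterocyte median was -0.59, with 4 of 43 positive, and the xenobiotic median -0.43. The median of Paneth markers was -0.09 (10 of 22 positive), and 0.69 without wild-type library 3. Their mean was 1.60 in that library and -0.69 to -0.18 in the other wild-type libraries. Without the outlying pair 22 of 22 were positive with a median of 0.68. With the mitochondrial covariate and all libraries 11 of 22 were positive with a median of -0.04. At 2 days, in other libraries, the enterocyte median was 1.19 with 41 of 43 positive. Over the 8 libraries of 2 days, Lct held 36.5 ± 49.5 CPM in the knock-out and 9.61 ± 5.63 CPM in the wild type (SD). Alpi held 48.3 ± 45.1 and 17.7 ± 8.43 CPM (SD), so the knock-out libraries of that time spread widely. Members of a list were measured in the same libraries, so their counts are not independent results. The genotype effect at 14 days minus that at 2 days was negative at an unadjusted p under 0.05 for 22 of 43 enterocyte markers, beside 3.64% of 15458 genes, and edgeR's QL F-test under Benjamini-Hochberg adjustment called 0 genes for this difference, 921 having an unadjusted p under 0.05. Each time was a separate table, so time cannot be told apart from run or cohort.

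Stem cell markers and Wnt targets differed little. Of 28 stem cell markers 14 were positive and 14 negative, with a median of 0.00 and 0 at an unadjusted p under 0.05 in either direction. Lgr5, the receptor that marks these cells, held 73.6, 111, 67, 78.1 and 69.9 CPM in the wild-type and 53.1, 78.9, 102, 86.9 and 102 CPM in the knock-out libraries, overlapping ranges with a difference of 0.08 ± 0.19 (SE). The Wnt target Ascl2 had 0.17 ± 0.22 and Olfm4 0.04 ± 0.23 (SE). The list members of smallest p were Slc14a1 at -0.72 ± 0.38, Fstl1 at 0.40 ± 0.28, Sp5 at -0.39 ± 0.29 and Smoc2 at -0.22 ± 0.18 (SE). Slc14a1 had -0.11 without wild-type library 2. Wnt targets and feedback genes had a median of -0.03, with 11 of 23 positive. Myc, a growth regulator among them, held 80.7, 70.9, 41.8, 70.9 and 59.1 CPM against 50.5, 61.2, 41.3, 27.4 and 44.9 CPM. Wild-type library 3 lay among the knock-out libraries, and the log2 fold change was -0.52 ± 0.22 (SE). On the other side, Zbtb33 and Id2 of the same list had 0.39 ± 0.18 and 0.26 ± 0.16 (SE), and Zbtb33 did not overlap between genotypes. Of 42 components of the Wnt pathway 35 were negative, with a median of -0.10, or -0.18 with knock-out library 5 left out and -0.06 with knock-out library 1 left out. The Wnt receptors Fzd5 and Fzd4 had -0.54 ± 0.21 and -1.33 ± 0.58 (SE), and Fzd5 had -0.30 with the mitochondrial covariate and -0.31 without wild-type library 2. Fzd4 had -0.72 without wild-type library 3, which held 5.66 CPM against 0.897 to 1.99 CPM in the other wild-type libraries. EGF receptor and MAPK feedback genes had 24 of 29 negative and a median of -0.14, or -0.06 without wild-type library 2, among them the target Etv5 at -0.78 ± 0.37 (SE). BMP and Hippo lists had medians of -0.01 and -0.09, with ranges of -0.08 to 0.03 and -0.21 to 0.01 when each library was left out.

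Genes of the machinery that Dlg1 belongs to had medians near 0. Apical-basal and planar polarity genes had 14 of 31 positive, a median of -0.06 and 0 at an unadjusted p under 0.05. Tight and adherens junction genes had 26 of 32 negative and a median of -0.09. Claudins, which set the permeability of tight junctions, lay on both sides. Cldn2, a pore-forming claudin of crypts, held 211, 224, 219, 214 and 240.1 CPM in the wild-type and 184, 209.6, 175, 188 and 168 CPM in the knock-out libraries. No knock-out library reached the lowest wild-type value, at a log2 fold change of -0.26 ± 0.13 (SE). Cldn4 held 152, 159, 169, 187 and 138 CPM against 206, 201, 224, 178 and 223 CPM, with knock-out library 4 within the wild-type range, at 0.36 ± 0.14 (SE).

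Ribosomal and respiratory genes were at higher values in 4 of the 5 knock-out libraries, together with the mitochondrially encoded share. Cytosolic ribosomal proteins had 64 of 76 positive and a median of 0.27, mitochondrial ribosomal proteins 76 of 77 and 0.35, and nuclear-encoded respiratory chain subunits 80 of 87 and 0.37. The respiratory list stood at -0.02, -0.35, 0.84, -0.16 and -0.32 in wild-type libraries 1 to 5 and at 0.93, 0.25, 0.73, 0.35 and -0.37 in knock-out libraries 1 to 5, relative to the wild-type mean. Wild-type library 3 lay with the highest knock-out libraries, and knock-out library 5 was the lowest of all. The mitochondrially encoded shares of the same libraries were 9.6, 6.21, 26.3, 11.6 and 7.91% and 24.2, 13.4, 17.8, 17 and 7.08%. Without knock-out library 1 the cytosolic and respiratory medians were 0.15 and 0.21, and without knock-out library 3 the mitochondrial ribosomal median was 0.22. Without wild-type library 3 the 3 medians were 0.66, 0.56 and 0.76, in the order of the lists above. With the mitochondrially encoded share as a covariate the medians were 0.07, 0.10 and 0.10. The complex I subunits Ndufa4 and Ndufb3 had 0.65 ± 0.27 and 0.62 ± 0.28 (SE), 0.35 and 0.31 with the covariate, and Ndufb3 had 0.93 without wild-type library 3.

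**Figure D4:**
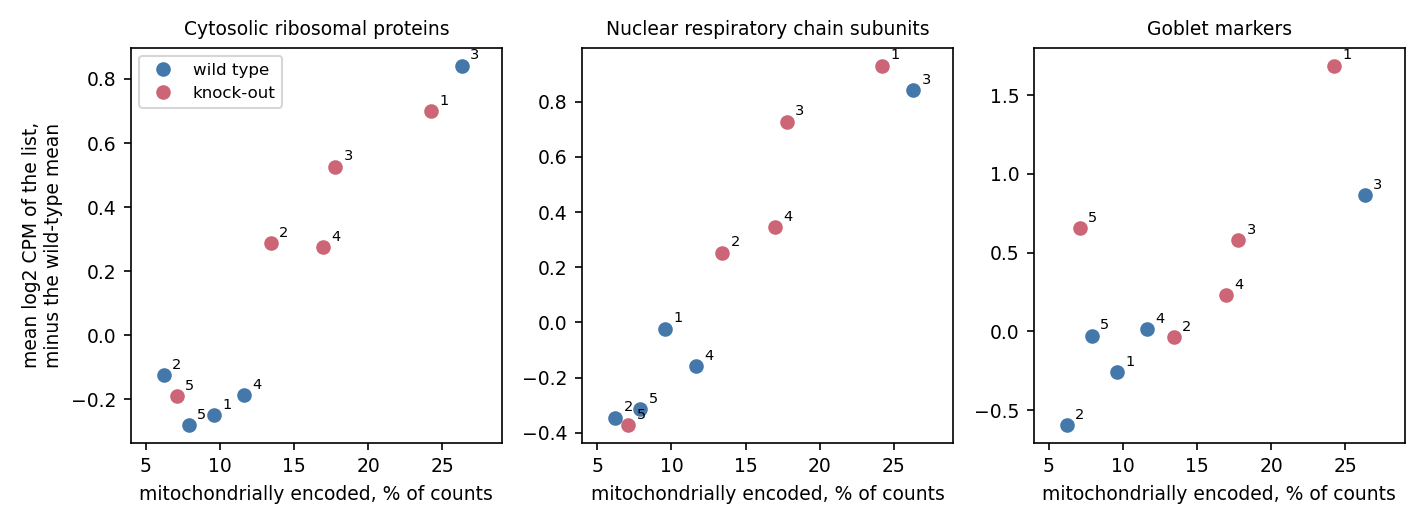
Percent of counts in mitochondrially encoded genes (horizontal axes) against the mean log2 CPM of 3 gene lists relative to the wild-type mean (vertical axes), 1 point per library with its number. Wild-type library 3 and knock-out library 1 have the highest share and lie high in all 3 lists, while knock-out library 5 lies low in the ribosomal and respiratory lists and not in goblet markers.

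Fold changes also differed with transcript length. Among the 2780 tested genes with exon lengths up to 2112 bases, the median log2 fold change was 0.18 and 68.3% were positive, against medians of -0.03 to 0.01 in 4 groups of longer genes of about equal size, and 152 genes were higher and 34 lower at an unadjusted p under 0.05. Of the goblet markers, 13 were longer than that, and all 13 were positive with a median of 0.47. Longer members of the respiratory list had 24 of 30 positive and a median of 0.36, beside 0.40 in its shorter members. Longer mitochondrial ribosomal members had 40 of 41 positive and 0.33, beside 0.36. Longer cytosolic ribosomal members had 23 of 30 positive and 0.22, beside 0.31. The part of transcript length in these values was not tested. Without knock-out library 5 and wild-type library 3, a fit added after the data were seen, 669 of 14201 genes were called by edgeR's QL F-test under Benjamini-Hochberg adjustment, 604 higher (4.25%) and 65 lower (0.458%). Their median exon length was 1715.5 bases for the higher and 3776.5 for the lower genes, beside 4060.5 over all, and 145 belonged to the ribosomal and respiratory lists. With the mitochondrial covariate in those 8 libraries 0 genes were called, 628 having an unadjusted p under 0.05. Genotype and mitochondrial share cannot be told apart among them, since their ranges did not overlap. Genes called lower without the pair included Arhgap31, Plcd1 at -1.17 and Dclre1c, a nuclease of DNA end joining, at -1.0. The goblet marker Ccl9 and the hormone Sst were called higher, at 1.45 and 2.13, with adjusted p of 0.0438 and 0.00744 in that test. The pair held values that went against these calls. Knock-out library 5 held 3.0 CPM of Sst, 11 of Plcd1 and 35.4 of Dclre1c, each within the wild-type range. Wild-type library 3 was the highest wild-type library for Ccl9 and Sst, at 22.1 and 10.2 CPM. Leaving the pair out thus favours calls of these genes.

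Histone genes of the replication-dependent clusters had 44 of 45 tested members positive, a median of 0.61 and 8 higher at an unadjusted p under 0.05, beside 2.44% of all genes. Their mean was 0.08, -0.81, 0.89, -0.02 and -0.15 in the wild-type and 1.42, 0.31, 0.54, 0.42 and 0.37 in the knock-out libraries, so all 5 knock-out libraries lay above the wild-type mean and wild-type library 3 above 4 of them. Their transcripts are short, with a median exon length of 618 bases, mostly lack poly(A) tails, and are near-identical copies, so single values are uncertain. With the mitochondrial covariate the median was 0.34, without knock-out library 1 it was 0.30, and without wild-type library 3 it was 0.99. S phase and DNA replication genes had a median of 0.07 with 4 of 51 higher at an unadjusted p under 0.05 (2.44% of all genes), namely Tipin of the fork protection complex at 0.50 ± 0.18 (SE), the helicase subunits Gins4 and Gins2 at 0.50 and 0.52, and the polymerase subunit Pola1 at 0.33. Gins2 had 0.33 and the list a median of -0.02 without knock-out library 3, and the list had 0.15 with wild-type library 1 left out. Genes of G2/M and mitosis had a median of -0.01 with 20 of 42 positive.

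Immediate early and heat shock genes had 22 of 28 negative and a median of -0.10, with 6 lower at an unadjusted p under 0.05, beside 1.55% of all genes. The median was -0.02 without wild-type library 2 and -0.15 without knock-out library 3, and without the outlying pair 12 of 28 were positive. The inducible chaperone Hspa1b held 161, 794, 441, 662 and 489.8 CPM in the wild-type and 182, 215, 276, 349 and 300.2 CPM in the knock-out libraries. Wild-type library 1 was the lowest of all and the other 4 wild-type libraries lay above every knock-out library, at a log2 fold change of -0.95 ± 0.33 (SE). Its near-identical neighbour Hspa1a had -0.83 ± 0.34 (SE), the cochaperone Bag3 -0.55 ± 0.24 (SE) and the early response factor Egr2 -0.45 ± 0.17 (SE), or -0.27 without wild-type library 2.

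**Figure D5:**
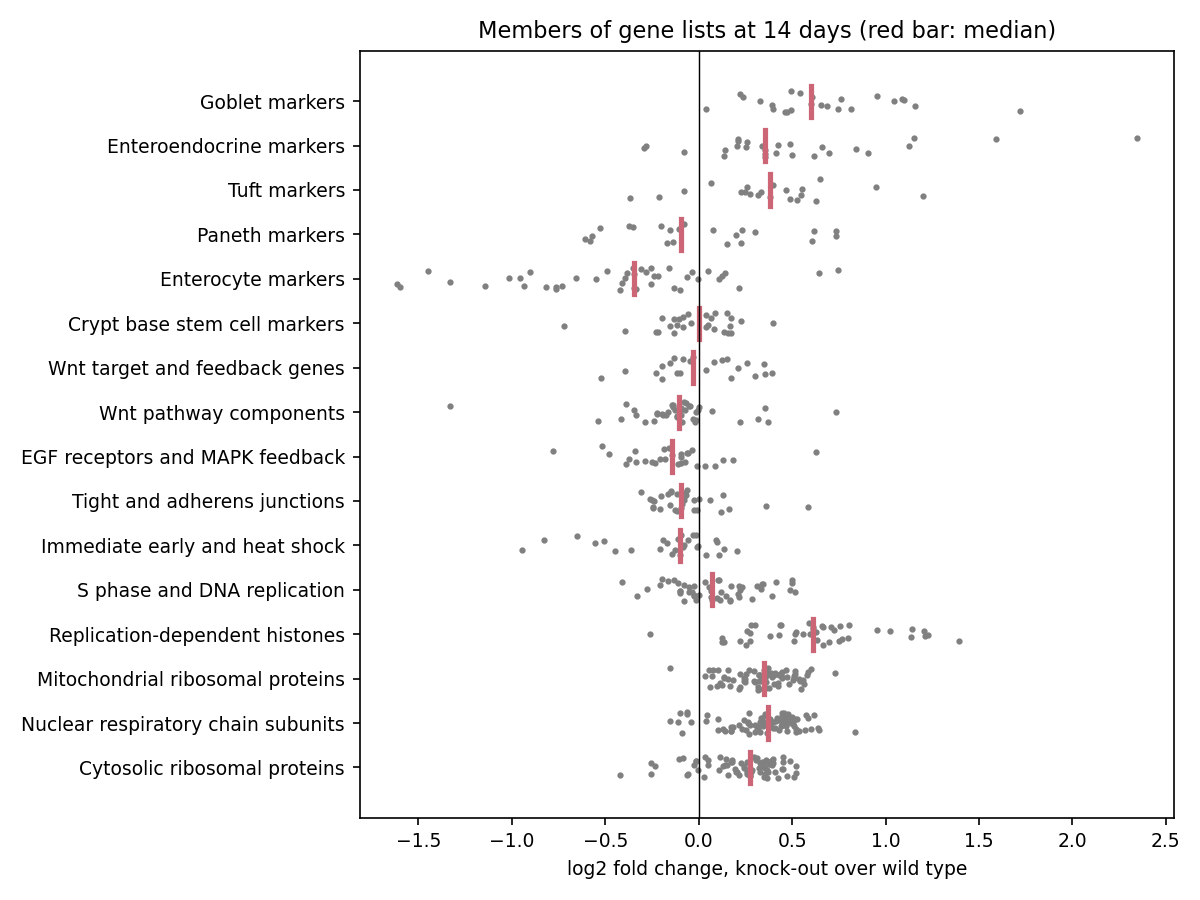
Log2 fold change of knock-out over wild type (horizontal axis) for each tested member of 16 gene lists, with red bars at the medians. Goblet markers and replication-dependent histones have the highest medians (0.60 and 0.61), and enterocyte markers the lowest (-0.35).

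Markers of other cells that a sort could carry were few. Of 19 lymphocyte, 17 myeloid and 11 B and plasma cell markers 3, 4 and 3 passed the filter on low counts. Lymphocyte markers summed to 9.77 to 16.7 counts per M of the library total, not TMM-scaled, in the knock-out and 6.99 to 14.7 in the wild type, and myeloid markers to 28.5 to 52.3 and 21.3 to 56. The neutrophil genes S100a8 and S100a9 were at 0 in every library. Y-linked transcripts were present in 3 of 5 libraries of each genotype.

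Among the 15 genes named per direction, the genotype effect at 14 days minus that at 2 days had an unadjusted p under 0.01 for Plcd1, Eepd1, Xpnpep2, Pxdc1 and B2m. Plcd1 had a log2 fold change of 1.31 at 2 days and -0.89 at 14 days, a difference of -2.22 ± 0.64 (SE). The differences were -2.11 ± 0.65 for Eepd1, -1.79 ± 0.54 for Xpnpep2, -2.68 ± 0.93 for Pxdc1 and 1.26 ± 0.44 for B2m (SE). Among the list members named above, Sst, Scgn, Hspa1b, Hspa1a, Lct and Alpi had such a p, with 6.70 ± 1.57 for Sst and -2.71 ± 0.77 for Hspa1b (SE). Sst and Scgn did not pass the filter on low counts in the libraries of 2 days alone. Their differences thus rest on few counts at that time, and their size is uncertain. None of the genes named here passed Benjamini-Hochberg adjustment in edgeR's QL F-test, where the smallest adjusted p over all genes was 0.289. For Arhgap31 the difference was 0.28 ± 0.67 (SE).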

How the data were processed

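The authors deposited raw read counts for each Ensembl gene, 1 column per library, without normalization. STAR 2.4.2a, bcl2fastq 2.20.0.422 and the build GRCm38 are named, per the submitters' processing notes. For the annotation, the counter and its strand and multi-mapping settings, no entry is given in the sources used here, so overlapping genes and near-identical copies are uncertain. Per the labels' protocols, poly(A) RNA was amplified with SmartSeq and Nextera XT kits, and no molecular identifiers are named. Symbols came from GENCODE M21 and matched 42462 of 43432 identifiers.

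The columns carry no replicate numbers of the labels, so libraries were numbered by their place in the table. Low genes were removed (filterByExpr, minimum count 10), libraries were scaled by TMM, and genotypes were compared with edgeR 4.0.16 (quasi-likelihood, Benjamini-Hochberg, called at an adjusted p under 0.05) in R 4.3.3 over the 10 libraries of 14 days. The standard error of a log2 fold change is its size over the root of F. The difference between times came from 1 fit of all 18 libraries. Exact permutation tests used log2 CPM with a pseudocount of 0.5, and lists were described without a test. The scripts were tested on simulated data.

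Genes named were Dlg1, Arhgap31 and Cdc42, genes called by edgeR or DESeq2, and up to 15 per direction of smallest p with an average log2 CPM of at least 2, all 5 knock-out libraries on one side of the wild-type mean and no predicted model. Up to 4 members of smallest p per list were added, and exceptions are marked. 1 gene within the rule is not reported here. Members and the 45 lists were chosen with earlier results of these data known. Alternatives used DESeq2 1.42.0, limma 3.58.1, other scalings, filters and covariates, and each library left out. Fits without knock-out library 5 and wild-type library 3, with mitochondrial or satellite-like share as covariates or with the letter of the column name as a term, and the count of list members in the difference between times, were chosen after seeing the data.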

Additional observations from a re-analysis of the deposited data

Results flagged for a closer look

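Of 72 groups of 5 libraries examined, 5 had 1 library far from the others by Dixon's criterion, which chance alone meets in about 1 in 20 groups. Wild-type library 3 had 26.3% of its counts in mitochondrially encoded genes, and knock-out library 5 had 47.04% in satellite-like gene models. Among named genes, wild-type library 3 stood apart from the other wild-type libraries at 4.136 log2 CPM for Prps1 and 4.427 log2 CPM for Pxdc1, and knock-out library 5 from the other knock-out libraries at 4.535 log2 CPM for Polr2c. The cause was not tested.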

How the results depend on the processing

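The count of called genes was 0 with all libraries, 0 in each fit that left out 1 library, 1 with DESeq2, 2 without a filter on low counts (Arhgap31 and Ghrl) and 669 without knock-out library 5 and wild-type library 3, an alternative added after seeing the data. The cause was not tested. It was 0 under the other alternatives run. Without wild-type library 3 alone 1746 genes had an unadjusted p under 0.05 with edgeR, against 558 with all libraries. The counts of genes without overlap ranged from 32 to 39 higher and 32 to 40 lower over 3 scalings or feature sets. Of 800 values of 32 single genes under alternatives, 4 changed sign, each without that pair and with the mitochondrial covariate, at -0.25 for Cdc42, -0.28 for B2m, -0.71 for AW112010 and 0.16 for Mfge8. Another 16 values, 14 of them without that pair and no covariate, passed the threshold that they missed with all libraries, and over all alternatives 45 list medians moved by more than the SD of the wild-type libraries and 1050 did not. No paired analysis was possible because the columns of the table carry no replicate numbers. Depth limits genes of few counts, such as Arhgap31, with 7 to 35 raw counts in knock-out libraries.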
